A study of Mus musculus with 162 samples.

Results

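Immediate early genes are genes whose transcription is switched on within minutes of a stimulus, without new protein having to be made first. Here 10 of them, picked by symbol from the 53686 genes of a count table (Fos, Fosb, Junb, Egr1, Egr2, Egr3, Arc, Npas4, Nr4a1 and Ier2), were followed in 9 organs of mice fasted for up to 22 h. All 10 symbols were found, each once. The mice were adult C57BL/6J males, and 3 of them stood at each of 6 times: fed freely (0 h), or with food withdrawn for 2, 8, 12, 18 or 22 h before the organs were taken, all in the same part of the day. Every one of the 18 mice gave the olfactory bulb (OB), the brain as telencephalon and diencephalon (BRN), the cerebellum (CBL), the brainstem (BST), the stomach (STM), the liver (LIV), brown fat from between the shoulder blades (iBAT), perigonadal white fat (pgWAT) and posterior subcutaneous white fat (psWAT). mRNA of each organ was sequenced, 1 library per organ and mouse. Libraries were matched across organs by the replicate number in the sample titles, taken to stand for the same mouse in every organ, and comparisons within mice rest on that. No group carried a transgene or a drug.

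Most of these genes encode transcription factors. Fos, Fosb and Junb are subunits of the AP-1 dimer, Egr1, Egr2 and Egr3 are zinc finger factors, Nr4a1 is an orphan nuclear receptor and Npas4 is a factor that neurons induce upon calcium influx, while Arc encodes a synaptic protein that takes part in receptor uptake and Ier2 a small nuclear protein. In neurons they serve as readouts of recent activity, and in liver, fat and gut they respond to hormones, growth factors, stress and handling.

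The libraries analysed held from 3045845 to 27801717 counts each. Levels are given as CPM, which are counts scaled by the total of their library, and 3 counts, taken as the floor of detection, equal 0.985 CPM in the shallowest library and 0.108 CPM in the deepest. Such floors cover counting error alone. Left out were 5 libraries, those with the fewest counts of their organ: BRN 8 h replicate 3, BRN 18 h replicate 1, STM 12 h replicate 3, iBAT 22 h replicate 1 and psWAT 22 h replicate 2. Each organ's libraries held the markers of that organ. The summed level of 5 olfactory bulb markers was 1221 to 1545 CPM in OB, that of 6 forebrain markers 1114 to 1729 CPM in BRN, of 6 cerebellar markers 4666 to 5665 CPM in CBL and of 5 brainstem markers 394 to 679.7 CPM in BST. Hepatocyte markers (4 genes) summed to 66064 to 93837 CPM in LIV, and brown fat markers (4 genes) to 4037 to 10028 CPM in iBAT. White fat was less even. The 4 white adipocyte markers summed to 1380.0 to 14365 CPM in pgWAT and 67.6 to 6249 CPM in psWAT, where 4 leukocyte markers, chiefly Ptprc, summed to 148.1 to 2425 CPM against 20.6 to 71.9 CPM in pgWAT. A set of 4 libraries was handled as standing apart from the rest of their organ: BRN 2 h replicate 3, BRN 18 h replicate 2, psWAT 12 h replicate 3 and pgWAT 22 h replicate 2. In the psWAT library 6 cerebellar markers summed to 3797 CPM (highest Cbln3, 1067 CPM), and in the pgWAT library 4 epididymis and testis markers summed to 21813 CPM (highest Crisp1) beside 1380 CPM of white adipocyte markers. No threshold for this set is given, and it is not complete. In BRN 2 h replicate 3, 4.92% of all genes lay more than 1 below the median of the other mice on the log2 scale. In 2 libraries outside the set, BRN 12 h replicate 2 and iBAT 22 h replicate 2, 23.3% and 30.1% did.

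The olfactory bulb held the highest median level of 9 of the 10 genes, and subcutaneous fat that of Ier2. These are orders of plain CPM. With a normalization factor computed over all libraries Junb was highest in STM and Ier2 in LIV, and the other 8 genes were highest in OB. Organs were compared within mice, by a two-sided permutation test that flips the sign of each mouse's difference in log2(CPM + 0.5), for the 8 neighbours in each gene's order. Of the 80 comparisons 39 had an adjusted permutation p under 0.05. Because the organs are bulk tissue, more cells that express a gene and more RNA per cell cannot be told apart.

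For the AP-1 subunit most used as an activity marker, the median Fos level in CPM ran OB 62, STM 43.5, CBL 33.5, BRN 20.8, BST 15.8, pgWAT 8.17, psWAT 5.6, iBAT 1.56 and LIV 0.999. Between Fos neighbours in that order, OB and STM, STM and CBL, BST and pgWAT, pgWAT and psWAT and iBAT and LIV were not separated (adjusted permutation p from 0.0614 to 0.262), and the other 3 pairs were. In OB the libraries held 8.06 to 106 CPM (median 62, n = 18), in LIV 0.136 to 2.89 CPM (median 0.999, n = 18). Stomach was thus the organ next to OB, above the 3 other brain regions, and liver and brown fat lay lowest. For Fosb, whose splice form DeltaFosB is long lived, the median Fosb level in CPM ran OB 27, BRN 8.54, STM 2.19, psWAT 1.61, pgWAT 1.55, BST 1.53, CBL 0.685, iBAT 0.358 and LIV 0.152. Between Fosb neighbours in that order, STM and psWAT, psWAT and pgWAT, pgWAT and BST and CBL and iBAT were not separated (adjusted permutation p from 0.193 to 0.685), and the other 4 pairs were. Only OB and BRN exceeded 5 CPM in the median. In LIV 17 of 18 libraries lay at or under 3 counts. For Junb, the Jun partner in the dimer, the median Junb level in CPM ran OB 61.2, STM 56.1, psWAT 46.6, BRN 39.6, LIV 12.2, pgWAT 10, BST 8.31, CBL 8.24 and iBAT 6.07. Between Junb neighbours in that order, OB and STM, STM and psWAT, psWAT and BRN, LIV and pgWAT, BST and CBL and CBL and iBAT were not separated (adjusted permutation p from 0.0554 to 0.726), and the other 2 pairs were. Junb medians were the most even of the AP-1 genes, and every library lay above the floor. Its exons overlap those of Prdx2 on the other strand. Prdx2 held 344587 counts over all libraries against 42125 of Junb, the library kit was stranded, and the strand setting of the counting is not given, so a share of Prdx2 reads in the Junb values was not tested.

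Among the zinc finger factors, the median Egr1 level in CPM ran OB 312, BRN 173, psWAT 36, CBL 35.9, BST 22.4, STM 21.4, pgWAT 14.1, LIV 6.41 and iBAT 6.13. Between Egr1 neighbours in that order, psWAT and CBL, BST and STM, STM and pgWAT and LIV and iBAT were not separated (adjusted permutation p from 0.152 to 0.958), and the other 4 pairs were. OB libraries held 55.9 to 489 CPM (median 312, n = 18) and BRN libraries 100.5 to 329 CPM (median 173, n = 16). Egr1 was the most abundant of the 10 genes in OB by CPM. For Egr2, known for its part in myelination and in lymphocyte anergy, the median Egr2 level in CPM ran OB 14.4, psWAT 9.79, BRN 4.97, pgWAT 2.61, STM 0.363, iBAT 0.259, CBL 0.0955, BST 0.0905 and LIV 0. Between Egr2 neighbours in that order, OB and psWAT, BRN and pgWAT, STM and iBAT, CBL and BST and BST and LIV were not separated (adjusted permutation p from 0.19 to 0.833), and the other 3 pairs were. Over all organs 72 libraries lay at or under 3 counts for Egr2, among them 17 of 18 in BST. Subcutaneous fat held as much Egr2 as the brain regions below OB or more. For Egr3, induced by neuronal and by antigen receptor signals, the median Egr3 level in CPM ran OB 89.2, BRN 67.9, psWAT 46.4, STM 7.45, BST 2.58, pgWAT 1.66, CBL 1.13, iBAT 0.287 and LIV 0.0402. Between Egr3 neighbours in that order, pgWAT and CBL and iBAT and LIV were not separated (adjusted permutation p from 0.0535 to 0.189), and the other 6 pairs were. In psWAT the range was 5.44 to 65.9 CPM (median 46.4, n = 17), and in CBL, a brain region, 0.181 to 2.36 CPM (median 1.13, n = 18).

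For the synaptic effector Arc, the median Arc level in CPM ran OB 222, BRN 138.3, BST 31, psWAT 22.9, CBL 22.3, STM 3.7, iBAT 1.15, pgWAT 0.632 and LIV 0.115. Between Arc neighbours in that order, psWAT and CBL and iBAT and pgWAT were not separated (adjusted permutation p from 0.493 to 0.522), and the other 6 pairs were. OB held 56.4 to 289 CPM (median 222, n = 18). All 4 brain regions and psWAT lay above 10 CPM in the median, and the other organs below 5 CPM. For the neuronal factor Npas4, the median Npas4 level in CPM ran OB 23.9, BRN 21.3, STM 8.07, CBL 3.73, BST 1.85, psWAT 1.46, pgWAT 0.427, iBAT 0.0619 and LIV 0. Between Npas4 neighbours in that order, OB and BRN, BST and psWAT and iBAT and LIV were not separated (adjusted permutation p from 0.0916 to 0.297), and the other 5 pairs were. STM, at 2.77 to 33.6 CPM (median 8.07, n = 17), stood above CBL and BST. In LIV 18 of 18 libraries lay at or under 3 counts. For the nuclear receptor Nr4a1, the median Nr4a1 level in CPM ran OB 208, BRN 65.5, psWAT 34.9, iBAT 29, CBL 27.2, STM 18.6, BST 8.95, pgWAT 8.84 and LIV 1.97. Between Nr4a1 neighbours in that order, psWAT and iBAT, iBAT and CBL, CBL and STM and BST and pgWAT were not separated (adjusted permutation p from 0.262 to 0.573), and the other 4 pairs were. Brown fat had the widest spread as the ratio of highest to lowest library (108), 1.48 to 159.1 CPM (median 29, n = 17), against 35 to 292 CPM (median 208, n = 18) in OB (ratio 8.33). For Nr4a1, too, every library lay above the floor. For Ier2, the median Ier2 level in CPM ran psWAT 49.4, STM 44.3, LIV 40.6, CBL 18.4, OB 15.1, pgWAT 14.8, iBAT 12.5, BRN 10.9 and BST 5.01. Between Ier2 neighbours in that order, psWAT and STM, STM and LIV, OB and pgWAT, pgWAT and iBAT, iBAT and BRN and BRN and BST were not separated (adjusted permutation p from 0.0535 to 0.652), and the other 2 pairs were. The brain regions were thus not the highest for Ier2, and psWAT held 24.5 to 107 CPM (median 49.4, n = 17). Between genes, levels are compared per length of exon sequence. In OB the medians in CPM per kilobase were Arc 72.7, Egr1 69.5, Nr4a1 59.3, Junb 26.6, Fos 26.4, Egr3 20.2, Ier2 9.92, Npas4 5.78, Fosb 4.33 and Egr2 4.24. On that scale Arc, not Egr1, was the most abundant.

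**Figure D1:**
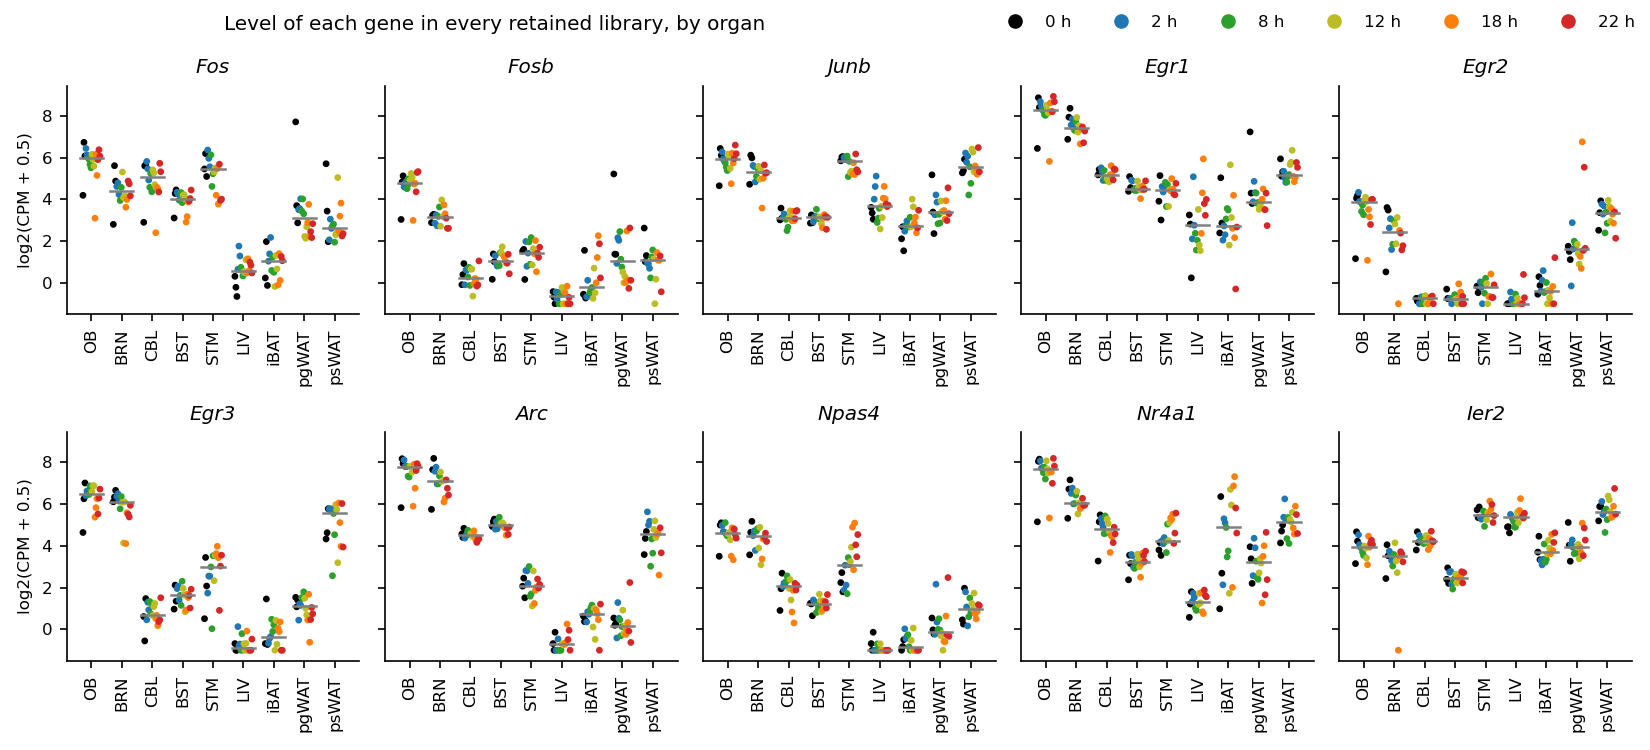
Each point is 1 library, plotted as log2(CPM + 0.5) of 1 gene per panel against the organ and coloured by hours of fasting, with the organ's median as a grey line. OB has the highest median for 9 of the 10 genes, Ier2 being highest in psWAT.

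In the olfactory bulb 2 mice stood low in nearly all of these genes at once: mouse 1, fed (0 h replicate 1), and mouse 13, fasted for 18 h (replicate 1). Fos in OB measured 17.8, 106 and 67.1 at 0 h, 86.3, 69.4 and 64 at 2 h, 60.1, 50.7 and 45.1 at 8 h, 70.9, 59.5 and 47.8 at 12 h, 8.06, 71.2 and 35 at 18 h, and 59.3, 82.7 and 66.7 at 22 h (CPM). Both mice lay below every other library, the lowest of which held 34.96 CPM, and they belonged to different times. Egr1 in OB measured 86.4, 467 and 339 at 0 h, 410.4, 352 and 312 at 2 h, 304, 268 and 259.6 at 8 h, 364, 311 and 281 at 12 h, 55.9, 393 and 292 at 18 h, and 295, 489 and 409 at 22 h (CPM). Nr4a1 measured 35, 265 and 285 at 0 h, 269, 209.8 and 215 at 2 h, 181, 218 and 146.9 at 8 h, 269, 206 and 179.6 at 12 h, 39.9, 189.3 and 185 at 18 h, and 127, 292 and 226 at 22 h (CPM). The same mice were again the lowest. For Npas4 they were not the lowest pair: 18 h replicate 3 held 9.57 CPM, mouse 1 10.8 and mouse 13 10.9 CPM. Both mice were the lowest pair of the 18 for 9 of the 10 genes (all but Npas4). Arc, for instance, held 56.4 and 59.2 CPM in them against 108 to 289 CPM in the rest, and Egr2 1.73 and 1.61 CPM. Against the median of the other mice the 10 genes differed by a median of -1.83 on the log2 scale in mouse 1 and -1.85 in mouse 13, with 9 of 10 below -1 in each. Over the genes kept in OB the median differences were 0.01 and 0.00, with 0.131% and 2.8% of genes below -1. Of all these genes mouse 13 was the lowest library for 24.3% and the highest for 22.1%. Mouse 1 was so for 4.83% and 6.77%. The OB library of mouse 13 thus stood out over all genes too.

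The low values of these mice reached the other brain regions for some of the genes. In CBL both were the lowest pair for 3 of the 9 genes above the floor, namely Fos (6.96 and 4.78 CPM against 19.97 to 55.9), Nr4a1 (9.17 and 12.4 CPM) and Ier2 (13.4 and 13.7 CPM). In BST they were so for 3 of 9, namely Fos (8.12 and 7.03 CPM), Egr1 (20.4 and 15.9 CPM) and Nr4a1 (4.69 and 5.15 CPM). The BRN library of mouse 13 was left out, and in that of mouse 1 Fos held 6.47 CPM, the lowest of 16. A neighbouring low library in BRN, 18 h replicate 2, is one of those standing apart: there the 10 genes differed by a median of -1.08 from the other mice, and all genes by -0.42. No count of Ier2 or Egr2 was found in it. In OB other genes of the same pathway were lower in mice 1 and 13 by less. The 18 other immediate early transcription factors kept there differed by a median of -0.49 and -0.37, with 4 and 4 genes below -1, the feedback inhibitors by -0.25 and -0.38, and the upstream kinases and promoter factors by -0.10 and -0.14. These 2 mice were picked out by the values given here, so no test was run on them.

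**Figure D2:**
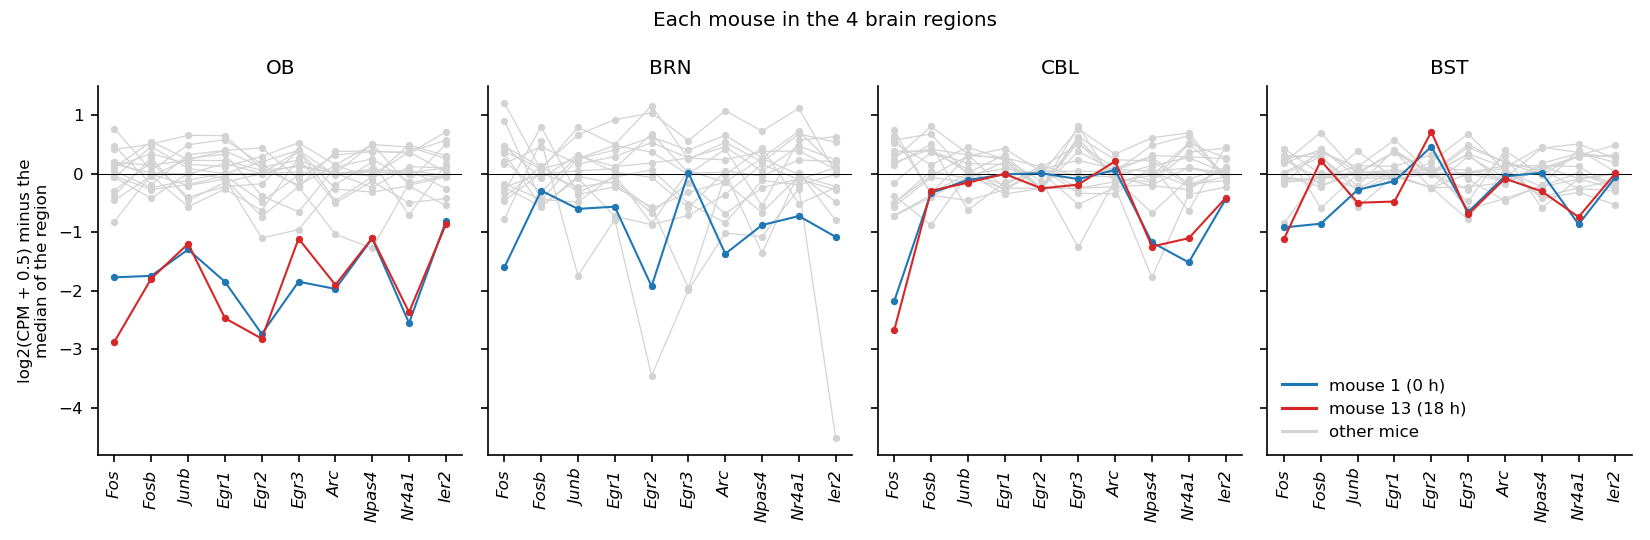
Each line is the library of 1 mouse in 1 brain region, drawn as the difference of log2(CPM + 0.5) from the region's median for each gene, with mouse 1 (0 h) in blue, mouse 13 (18 h) in red and the others in grey. In OB both coloured lines lie below the grey ones for 9 of the 10 genes.

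Levels of Fos went together between brain regions over mice in all 6 pairs, and those of Nr4a1 in 3. The other 8 genes passed in 0 or 1 pair each, with a median r over the 6 pairs of -0.13 (Egr2), 0.09 (Junb), 0.11 (Egr3), 0.22 (Fosb), 0.25 (Npas4), 0.26 (Ier2), 0.29 (Egr1) and 0.43 (Arc). Of 360 relations (10 genes, 36 pairs of organs) 13 had an adjusted permutation p under 0.05, all of them among the 60 within the brain, 12 positive and 1 negative. Among 200 relations between a brain region and another organ there were 0, and among 100 outside the brain 0, with 11 and 6 at an unadjusted permutation p under 0.05. For all genes the share of relations that pass in this way is not given, so these counts are not set against it. Fos passed in all 6 pairs of brain regions. Between OB and CBL it gave r = 0.92 (permutation p = 1e-05, adjusted 0.0012) and rho = 0.837 (permutation p = 5e-05, adjusted 0.009) over 18 mice. Between CBL and BST it gave r = 0.888 (permutation p = 1e-05, adjusted 0.0012) and rho = 0.847 (permutation p = 3e-05, adjusted 0.009) over 18 mice. The permutation p of 1e-05 is the smallest that 100000 permutations can give. These relations rest in part on mice 1 and 13. Without the 2 mice farthest from the median, which were these for the pairs of OB with CBL and BST and for CBL with BST, r was 0.697 for OB and CBL, 0.704 for CBL and BST and 0.247 for OB and BST. For the pairs with BRN it was 0.543 (CBL), 0.516 (OB) and 0.559 (BST), and none of the 6 had an adjusted permutation p under 0.05 without them. As deviations from the mean of each time, Fos gave r = 0.892 for OB and CBL and 0.857 for CBL and BST (adjusted permutation p = 0.18 for each). Within sequencing lanes, as the library names give them, OB and CBL gave r = 0.926 (lane 3, n = 8) and 0.923 (lane 4, n = 10), OB and BRN 0.908 (n = 8) and 0.355 (n = 8), and OB and BST 0.872 (n = 8) and 0.671 (n = 10). Mouse 1 lies in lane 3 and mouse 13 in lane 4 of OB, so each lane holds 1 of these mice, save for OB and BRN in lane 4, as the BRN library of mouse 13 was left out. CBL libraries all carried lane code 3. BRN and CBL gave r = 0.478 in the 1 number series of BRN libraries with enough mice, and BRN and BST 0.511 (n = 11 for each). As deviations from time means the other pairs gave r = 0.774 (OB and BRN), 0.638 (OB and BST), 0.773 (BRN and CBL) and 0.701 (BRN and BST).

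Nr4a1 passed in 3 of the 6 pairs. For OB and CBL it gave r = 0.899 (permutation p = 1e-05, adjusted 0.0012) and rho = 0.796 (permutation p = 0.00017, adjusted 0.0153) over 18 mice, with r = 0.775 without the 2 farthest mice and 0.925 as deviations from time means (adjusted permutation p = 0.0396), the 1 relation of 360 that passed in that form. Within lanes it gave 0.959 and 0.865. For OB and BST, Nr4a1 gave r = 0.748 (permutation p = 0.0014, adjusted 0.045) and rho = 0.517 (permutation p = 0.031, adjusted 0.485) over 18 mice, and r = 0.181 without the 2 farthest, so it rests on those mice, with 0.749 as deviations from time means and 0.831 and 0.720 within lanes. For BRN and CBL it gave r = 0.711 (permutation p = 0.0014, adjusted 0.045) and rho = 0.674 (permutation p = 0.0045, adjusted 0.162) over 16 mice, with r = 0.501 without the 2 farthest, 0.77 as deviations from time means and 0.464 in the 1 number series. A single pair passed for each of 4 other genes. Npas4 between OB and CBL gave r = 0.871 (permutation p = 8e-05, adjusted 0.0072) and rho = 0.542 (permutation p = 0.022, adjusted 0.44) over 18 mice, with r = 0.724 without the 2 farthest, 0.841 within times and 0.805 and 0.901 within lanes. Ier2 between OB and CBL gave r = 0.717 (permutation p = 0.0009, adjusted 0.045) and rho = 0.598 (permutation p = 0.01, adjusted 0.277) over 18 mice, with r = 0.49 without them, 0.778 within times and 0.933 and 0.529 within lanes. Egr1 and Egr2 passed between OB and BST. Egr1 gave r = 0.692 (permutation p = 0.00025, adjusted 0.018) and rho = 0.628 (permutation p = 0.0064, adjusted 0.192) over 18 mice, with r = 0.567 without the 2 farthest, 0.7 within times and 0.664 and 0.750 within lanes of OB. Egr2 gave r = -0.751 (permutation p = 0.0018, adjusted 0.0498) and rho = -0.362 (permutation p = 0.14, adjusted 0.684) over 18 mice, with r = -0.172 without them, -0.66 within times and -0.855 and -0.729 within lanes. This negative relation rests on those mice and on BST levels of which 17 of 18 lay at or under 3 counts. Over all 15451 genes kept in OB and CBL the median r between these regions was 0.07 across genes, which are not independent replicates, and 0.0647% of genes reached the r of Fos. In the other pairs of brain regions the share that reached Fos ran from 0.0694% (OB and BRN) to 0.391% (OB and BST). For Nr4a1 it was 0.0971% (OB and CBL), 0.423% (OB and BST) and 0.417% (BRN and CBL).

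Within an organ more of the genes passed with Fos in the olfactory bulb than elsewhere, a difference between organs that was not tested. Of 81 relations of Fos with the 9 other genes over the libraries of an organ, 23 had an adjusted permutation p under 0.05, and 8 of these were among the 9 of OB. Egr3 was the exception. Of all genes kept in OB, ranked by r with Fos with mice 1 and 13 included, those 8 held places from 1 (Egr1) to 16 (Npas4), and Egr3 494. No share of all genes under that adjusted p is given. In OB Egr1 gave r = 0.97 and rho = 0.957 with adjusted permutation p = 0.000162 and 0.000162, Arc r = 0.959 and rho = 0.963 with adjusted permutation p = 0.000162 and 0.000162 and Junb r = 0.902 and rho = 0.926 with adjusted permutation p = 0.000162 and 0.000162. Without the 2 libraries farthest from the median of Fos, those of mice 13 and 1, r was 0.85 for Egr1, 0.942 for Arc and 0.831 for Junb, so these 3 hold without them. Fosb, at r = 0.816 and rho = 0.362 with adjusted permutation p = 0.00932 and 0.27, fell to r = 0.0685, and so rests on those mice. The other genes that passed in OB were Nr4a1 (r = 0.907), Egr2 (0.906), Ier2 (0.851) and Npas4 (0.811), while Egr3 gave r = 0.586 and rho = 0.0588 with adjusted permutation p = 0.06 and 0.909. Without mice 13 and 1, Ier2 (r = 0.797, adjusted permutation p = 0.00527) and Npas4 (r = 0.708, adjusted permutation p = 0.0228) still passed. Nr4a1 (r = 0.626, adjusted permutation p = 0.0544) and Egr2 (r = 0.586, adjusted permutation p = 0.0861) then missed the threshold. Within the lanes of OB the 9 relations had r from 0.757 to 0.995 (median 0.943, n = 8) and 0.487 to 0.976 (median 0.897, n = 10), each lane holding mouse 1 or mouse 13. BRN had 5 relations that passed, Nr4a1 (r = 0.812), Arc (0.81), Junb (0.76), Egr2 (0.721) and Egr1 (0.679). Without the 2 farthest libraries there, those of mice 1 and 2, Nr4a1, Arc and Junb kept the threshold. Egr2 (r = 0.628, adjusted permutation p = 0.0702) and Egr1 (r = 0.61, adjusted permutation p = 0.0945) lost it. CBL had 3, of which Nr4a1 was the closest (0.905), beside Npas4 (0.625) and Ier2 (0.592). Without mice 13 and 1, the farthest in CBL, Nr4a1 gave r = 0.804 (adjusted permutation p = 0.00567). Npas4 fell to 0.298 and Ier2 to 0.0941 (adjusted permutation p = 0.504 and 0.881), so these 2 rest on those mice. BST had 3, Nr4a1 (0.724), Egr1 (0.72) and Egr2 (-0.706), the last again near the floor. Without mice 13 and 1, the farthest in BST too, these gave r = 0.364, 0.555 and -0.266. None of them then passed (adjusted permutation p = 0.38, 0.0945 and 0.551). In the stomach Junb varied with Fos (r = 0.773 and rho = 0.73 with adjusted permutation p = 0.00346 and 0.00752) and Npas4 went the other way (r = -0.712 and rho = -0.625 with adjusted permutation p = 0.00667 and 0.0365). In pgWAT Egr1 (r = 0.87 and rho = 0.701 with adjusted permutation p = 0.00594 and 0.00962) and Fosb (r = 0.799 and rho = 0.587 with adjusted permutation p = 0.00594 and 0.0463) passed, and without the 2 farthest libraries r was 0.495 and 0.462. LIV, iBAT and psWAT had 0 relations that passed. As deviations from time means 12 of the 81 passed, and without the 2 farthest libraries 13.

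Outside the 10 genes, those whose level followed Fos most closely in OB (Pearson r of log2 CPM over 18 libraries) were Dusp1 (r = 0.932), a phosphatase that acts on MAP kinases, Sik1 (0.896), a kinase induced by cAMP, and Btg2 (0.896), and of all genes only Egr1 and Arc ranked above Dusp1. In BRN they were Dusp1 (0.758), Dusp5 (0.728) and Ccdc43 (0.702), over 16 libraries. In CBL they were Nr4a2 (0.941), a relative of Nr4a1, Dusp5 (0.92) and Dusp1 (0.913). BST gave Zscan29 (0.781), Wipf2 (0.78) and Klf4 (0.776), pgWAT gave Dusp1 (0.822), Zfp36 (0.811) and Cyr61 (0.79), and STM gave Tcf23 (0.949), Epb41l4b (0.931) and Pparg (0.931). LIV gave Slc39a14 (0.802), Atg14 (0.797) and Mbd1 (0.759), iBAT Brf1 (0.823), Tctn1 (0.797) and Tmcc2 (0.775), and psWAT Acot11 (0.779), Stau2 (0.77) and Jun (0.766). These are likenesses over samples and carry no test. Mice 1 and 13 are included, save mouse 13 in BRN, and no ranks without them are given. In OB Sik1 and Dusp1 were among the lowest feedback inhibitors in both of these mice.

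Within each organ edgeR compared all 6 times jointly, called at an adjusted p under 0.05. It also compared the late fast (mean of 18 and 22 h) and the daytime fast (mean of 8 and 12 h) with 0 h, called where the adjusted p was under 0.05 and the log2 fold change (log2FC) beyond 1 in size. Late and daytime comparisons share the same fed mice. A gene was kept in an organ if 3 or more libraries held at least 10 counts at the organ's median library size. Of 77 tests of a kept gene in an organ, the joint test called 2, the late 2 and the daytime comparison 0, with 12, 16 and 8 at an unadjusted p under 0.05, and 6, 4 and 1 called by DESeq2. Over all genes 7.34%, 2.56% and 0.578% of such tests were called, 23.3%, 21.9% and 11.6% had an unadjusted p under 0.05, and DESeq2 called 15.4%, 3.7% and 0.879%. In the counts for each organ that follow, percentages in brackets are those of all genes tested there.

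In the stomach Npas4 and Nr4a1 rose late in the fast. There edgeR called 0 of 9 genes over the 6 times (against 6.55% of all genes tested), 2 in the late fast (7.09%) and 0 in the daytime fast (0%), with 2 (23.7%), 4 (32.3%) and 2 (4.65%) at an unadjusted p under 0.05 and 2 (17.2%), 2 (9.04%) and 0 (0.0123%) called by DESeq2. Npas4 measured 4.23, 6.08 and 2.97 at 0 h, 3.19, 7.92 and 3.85 at 2 h, 2.77, 10.3 and 8.07 at 8 h, 8.96 and 14.8 at 12 h, 29.3, 6.74 and 33.6 at 18 h, and 16.1, 10.6 and 22.8 at 22 h (CPM). All 6 late libraries lay above all 3 fed ones, the highest being 18 h replicates 3 and 1, which gave log2FC 1.99 ± 0.54 SE, adjusted p = 0.0235. Nr4a1 measured 13.5, 17.4 and 11.2 at 0 h, 18.6, 16.7 and 20.6 at 2 h, 17.9, 12.3 and 32.4 at 8 h, 18.5 and 34.1 at 12 h, 40.1, 37.9 and 45.5 at 18 h, and 16.9, 23.9 and 47 at 22 h (CPM). Of the late libraries 5 of 6 lay above the highest fed one and 1, 22 h replicate 1 at 16.9 CPM, within the fed range, which gave log2FC 1.14 ± 0.28 SE, adjusted p = 0.0142. At 18 h alone Npas4 gave log2FC 2.20 ± 0.58 SE, adjusted p = 0.0234, and Nr4a1 log2FC 1.37 ± 0.31 SE, adjusted p = 0.0104, and both were called, while at 22 h neither was (log2FC 1.78, adjusted p = 0.111 and log2FC 0.91, adjusted p = 0.117). Over the 6 times jointly they missed the threshold, at an adjusted p of 0.0609 and 0.0508, and DESeq2 called both. Fos itself was not called in STM. It measured 43.5, 72.6 and 33.7 at 0 h, 81.9, 61.9 and 46.7 at 2 h, 69.7, 24.1 and 36.9 at 8 h, 39.2 and 45 at 12 h, 17.8, 43.9 and 13.2 at 18 h, and 51, 15 and 15.6 at 22 h (CPM). Fed and late libraries overlap, with log2FC -1.02 ± 0.47 SE, adjusted p = 0.151. Junb gave log2FC -0.57 ± 0.23 SE, adjusted p = 0.0916. The median log2FC of the 9 genes kept was 0.15 against 0.00 over all genes. Whether the stomach differs from other organs in Npas4 or Nr4a1 was not tested.

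These stomach calls depend on few libraries. Without 0 h replicate 1 Npas4 was not called (log2FC 2.00, adjusted p = 0.0753), and without 0 h replicate 3 neither gene was (Npas4 log2FC 1.84, adjusted p = 0.128, Nr4a1 log2FC 1.07, adjusted p = 0.0772). Without 22 h replicate 3 Nr4a1 missed the fold threshold (log2FC 0.94, adjusted p = 0.0260). Fos was called without 18 h replicate 2 (log2FC -1.37, adjusted p = 0.0418) or without 22 h replicate 1 (log2FC -1.50, adjusted p = 0.0150). In the joint test Npas4 was called without 8 h replicate 1 (adjusted p = 0.0472), 8 h replicate 2 (0.0429) or 18 h replicate 2 (0.0132), and Nr4a1 without 8 h replicate 3 (0.0269), 12 h replicate 1 (0.0411), 22 h replicate 1 (0.0287) or 22 h replicate 3 (0.0317). All late stomach libraries carried lane code 6 and all fed ones lane code 5, linked by the 8 h libraries, which had both. With lane in the fit Npas4 gave log2FC 1.90 (adjusted p = 0.747) and Nr4a1 log2FC 0.15 (adjusted p = 0.969), so lane and fasting cannot be told apart here.

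The tissue make-up of the stomach pieces moved along with these genes. The 5 gastric epithelium markers, all detected, with Gkn1 the most abundant in the median, summed to 54215, 38414 and 88359 at 0 h, 56827, 30812 and 44094 at 2 h, 66619.5, 42549 and 42283 at 8 h, 39248 and 43111 at 12 h, 12192, 40249 and 12544 at 18 h, and 46332, 23049.8 and 12844 at 22 h (CPM). Of the late libraries 4 of 6 lay below every fed one. The 4 smooth muscle markers summed to 3264 to 5939 CPM when fed and to 4250 to 14183 CPM late, and the 4 neuron markers, which include Snap25, to 13.3 to 25.3 CPM when fed and 41.4 to 70.03 CPM late (1 of the 4 at 0 in 8 h replicate 2 and in 22 h replicate 3), so the neuron marker ranges do not overlap. Over the 17 libraries Npas4 ran against the gastric epithelium sum, with r = -0.856 and rho = -0.743 with adjusted permutation p = 0.0001 and 0.0046 (n = 17), r = -0.746 without the 2 farthest libraries and -0.778 as deviations from time means. For Nr4a1 r = -0.748 and rho = -0.61 with adjusted permutation p = 0.00192 and 0.0314 (n = 17). Fos and Junb ran with it, with r = 0.743 and rho = 0.534 with adjusted permutation p = 0.00257 and 0.0622 (n = 17) for Fos and r = 0.672 and rho = 0.65 with adjusted permutation p = 0.007 and 0.0193 (n = 17) for Junb. These are 4 of 20 such relations, computed after the values had been seen, and the part of tissue make-up in the fasting result was not tested.

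In the liver Ier2 and Junb changed over the fasting times. There edgeR called 2 of 5 genes over the 6 times (against 16% of all genes tested), 0 in the late fast (1.66%) and 0 in the daytime fast (0.813%), with 3 (35.2%), 2 (26.7%) and 2 (25.7%) at an unadjusted p under 0.05 and 2 (25.6%), 0 (2.29%) and 0 (0.941%) called by DESeq2. Ier2 measured 29.5, 29.7 and 24.1 at 0 h, 45, 42.2 and 39 at 2 h, 35.6, 29.4 and 29.3 at 8 h, 41.4, 48.5 and 34.1 at 12 h, 51.5, 76.4 and 47.1 at 18 h, and 41.7, 39.8 and 46.7 at 22 h (CPM). Every late library lay above every fed one, as did all 2 h libraries, and the joint test gave an adjusted p of 0.00328. Ier2 was higher at 12 h (log2FC 0.53 ± 0.16 SE, adjusted p = 0.0296), at 18 h (log2FC 0.94 ± 0.15 SE, adjusted p = 0.00115) and at 22 h (log2FC 0.57 ± 0.15 SE, adjusted p = 0.0427) in adjusted p but by less than the fold threshold, and over the late fast it gave log2FC 0.75 ± 0.14 SE, adjusted p = 0.002. At 8 h it stood near the fed level (log2FC 0.08, adjusted p = 0.855). Junb measured 11.8, 9.7 and 7.77 at 0 h, 15.6, 24 and 34.1 at 2 h, 6.92, 8.07 and 11.4 at 8 h, 5.48, 12.2 and 8.27 at 12 h, 16.1, 24.1 and 15.8 at 18 h, and 13.2, 12.1 and 12.7 at 22 h (CPM). It was high at 2 h, when all 3 libraries exceeded the highest fed one, near the fed level at 8 and 12 h, and above it in all late libraries. The joint test gave an adjusted p of 0.00703, while no single time passed (at 2 h log2FC 1.32, adjusted p = 0.0867, at 18 h log2FC 0.81, adjusted p = 0.0994). Fos was scarce in the liver, at 0.743, 0.364 and 0.136 at 0 h, 1.07, 2.89 and 1.94 at 2 h, 1.17, 1.01 and 0.758 at 8 h, 0.953, 0.902 and 1.65 at 12 h, 0.89, 1.72 and 0.99 at 18 h, and 1.49, 1.29 and 0.891 at 22 h (CPM). All late libraries lay above the fed ones, with log2FC 1.40 ± 0.55 SE, adjusted p = 0.105 for the late fast and log2FC 2.21 ± 0.58 SE, adjusted p = 0.136 at 2 h, neither called. Egr1 varied from 0.681 to 60.9 CPM, both extremes being replicate 3 libraries (0 h and 18 h), and gave log2FC 1.70 ± 0.95 SE, adjusted p = 0.279. Without the filter on low counts Egr1 was called jointly and late (adjusted p = 3.76e-51 and log2FC 1.70, adjusted p = 7.96e-14), where the joint test called 3 of the 10 genes and 15.8% of all genes. With the filter, which keeps Egr1, its joint adjusted p was 0.202, and why the fits differ was not tested. Nr4a1 gave log2FC 0.12, adjusted p = 0.87. Of the 10 genes Fosb, Egr2, Egr3, Arc and Npas4 were too low to be kept. The 5 kept had a median late log2FC of 0.75 against 0.01 over all genes, and time accounted for a median of 64.9% of their variance against 45% over all genes. Without the replicate 2 mice the liver test called 0 genes of any kind, and Ier2 had an adjusted p of 0.191 and Junb of 0.265. Fed and 2 h livers carried lane code 1 and 12 to 22 h livers lane code 2, linked by 8 h. With lane in the fit Ier2 had an adjusted p of 0.0404 and Junb of 0.0217.

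**Figure D3:**
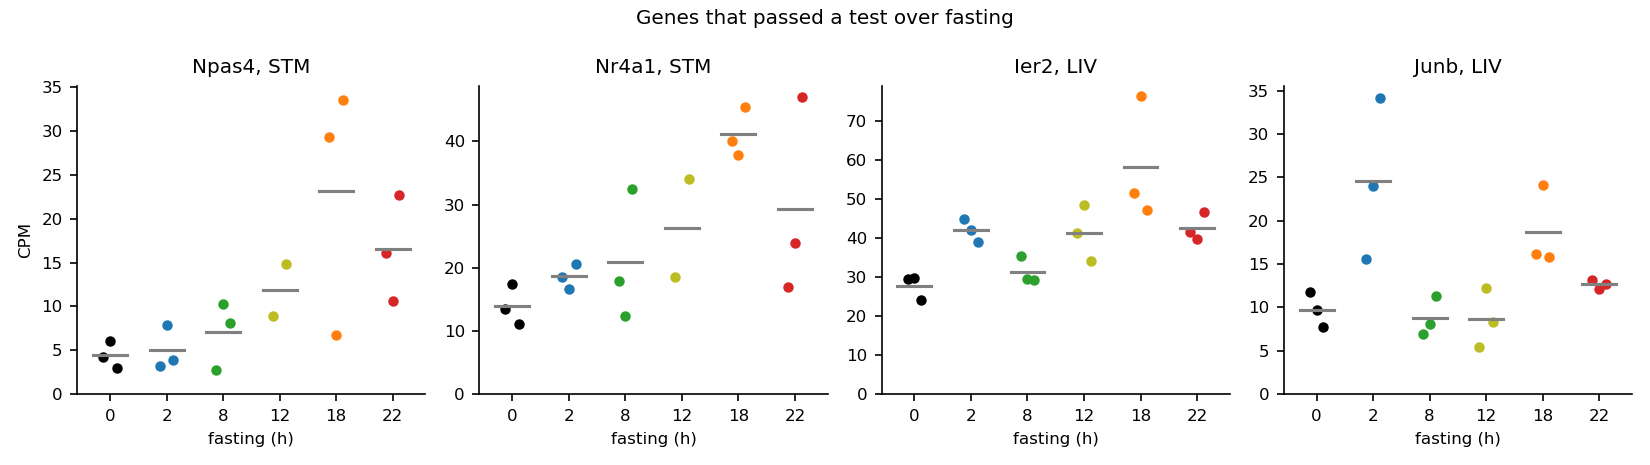
CPM of Npas4 and Nr4a1 in the stomach and of Ier2 and Junb in the liver against hours of fasting, each point 1 mouse and the grey line the mean of each time. Stomach Npas4 ranges from 2.97 to 6.08 CPM when fed and from 6.74 to 33.6 CPM at 18 and 22 h.

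With the filter on low counts no gene was called in any of the 4 brain regions. In OB edgeR called 0 of 10 genes over the 6 times (against 15.4% of all genes tested), 0 in the late fast (0.173%) and 0 in the daytime fast (0%), with 0 (32.4%), 0 (22.8%) and 0 (9.05%) at an unadjusted p under 0.05 and 0 (22.5%), 0 (0.0776%) and 0 (0.0179%) called by DESeq2. Without the filter on low counts the joint test called 10 of the 10 genes in OB, where it called 14.2% of all genes, with 1 gene of the 10 called in BST (2.45% of all genes) and 2 each in CBL (8.09%) and BRN (7%). The filter keeps all 10 genes in OB, and with it their joint adjusted p ran from 0.555 to 0.918. Why the fits with and without it differ so much was not tested, so the calls without it are not taken as changes. In BRN edgeR called 0 of 10 genes over the 6 times (against 0.00597% of all genes tested), 0 in the late fast (5.14%) and 0 in the daytime fast (3.82%), with 0 (16.6%), 3 (29%) and 0 (25.3%) at an unadjusted p under 0.05 and 0 (9.42%), 0 (7.76%) and 0 (5.89%) called by DESeq2. In CBL edgeR called 0 of 8 genes over the 6 times (against 2.99% of all genes tested), 0 in the late fast (0.0689%) and 0 in the daytime fast (0%), with 0 (23.8%), 1 (15%) and 0 (12.2%) at an unadjusted p under 0.05 and 0 (11.1%), 0 (0.182%) and 0 (0.0376%) called by DESeq2. In BST edgeR called 0 of 9 genes over the 6 times (against 0.107% of all genes tested), 0 in the late fast (0.00596%) and 0 in the daytime fast (0%), with 1 (11.1%), 1 (9.87%) and 0 (9.43%) at an unadjusted p under 0.05 and 0 (1.26%), 0 (0%) and 0 (0%) called by DESeq2. The median late log2FC of the genes kept was -0.17 against -0.01 over all genes in OB, -0.52 against -0.09 over all genes in BRN, -0.16 against -0.01 over all genes in CBL and -0.01 against 0.00 over all genes in BST. Egr3 in BRN came nearest. It measured 68.6, 80.5 and 100.7 at 0 h, 81.8, 89.9 and 70.2 at 2 h, 54.2 and 81.8 at 8 h, 67.5, 17.1 and 68.3 at 12 h, 16.7 and 47.5 at 18 h, and 45.2, 41.3 and 61 at 22 h (CPM). All 5 late libraries lay below the 3 fed ones, with log2FC -0.90 ± 0.32 SE, adjusted p = 0.0724, and -0.66 (adjusted p = 0.252) without the libraries standing apart. DESeq2 gave log2FC -0.91 (adjusted p = 0.0368), under the fold threshold. The lowest, at 16.7 CPM, was the library of 18 h replicate 2, which is one of them, and 12 h replicate 2, which is not, held 17.1 CPM. Without the replicate 3 mice Egr3 and Ier2 passed in BRN, as did 23.2% of all genes, but 18 h is then this library alone, in which Ier2 had 0 counts, so neither is taken as a change. Arc in BRN measured 53.2, 201 and 292 at 0 h, 189.8, 218 and 124.7 at 2 h, 125.2 and 163 at 8 h, 185, 136.1 and 140.5 at 12 h, 68.3 and 77.2 at 18 h, and 142.7, 108 and 85.9 at 22 h (CPM). The fed libraries ranged from 53.2 CPM in mouse 1 to 292 CPM and so overlap the late ones, with log2FC -0.83 ± 0.38 SE, adjusted p = 0.169. Egr1 (log2FC -0.57 ± 0.26 SE, adjusted p = 0.156) and Egr2 (log2FC -1.19 ± 0.73 SE, adjusted p = 0.29) were not called either. In BST Arc lay lower in all 6 late libraries (22.3 to 29.5 CPM) than in the fed ones (29.99 to 38.4 CPM), with log2FC -0.36 ± 0.10 SE, adjusted p = 0.233. In CBL Arc gave log2FC -0.25 ± 0.10 SE, adjusted p = 0.235. Differences between organs in the late change were tested for BRN against OB, CBL, BST and LIV, and for iBAT against both white fats, with the mouse as a block. No difference passed for any gene tested, which were 10 (OB), 8 (CBL), 9 (BST) and 5 (LIV) of the 10 for BRN, and 7 for iBAT against each white fat. Over all genes, BRN differed in 0 of 15846 from OB, 1189 of 15364 from CBL, 1765 of 15908 from BST and 1122 of 12620 from LIV. For iBAT it was 1 of 13994 against psWAT and 1 of 13961 against pgWAT. Where hardly any gene passed, as for OB and the fats, the 0 says nothing particular about the 10 genes. The smallest adjusted p were those of Egr1 between LIV and BRN (difference in log2FC 2.43 ± 0.77 SE, adjusted p = 0.0563) and Nr4a1 between BRN and BST (-0.78 ± 0.27 SE, adjusted p = 0.0698). In OB the within-time SD of log2 level had a median of 0.689 over the 10 genes against 0.16 over all genes, and each of the 10 lay above the 90th percentile of all genes (0.426). Time accounted for a median of 27% of the variance of the 10 genes in OB, where all genes had 44.1%. These values rest on mice 1 and 13: without them, an alternative chosen after seeing the data, the median SD in OB was 0.33 against 0.147 over all genes, 1 of the 10 lay above the 90th percentile, and time accounted for 45.5% against 45.3%. Without the replicate 1 mice, among them mice 1 and 13, the joint test in OB called Egr2 (adjusted p = 0.0409) and Fosb (adjusted p = 0.0320), and 1.99% of all genes. In OB the fed and 2 h libraries carried lane code 3 and those of 12 to 22 h lane code 4, linked by 8 h.

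In brown fat edgeR called 0 of 7 genes over the 6 times (against 29% of all genes tested), 0 in the late fast (9.6%) and 0 in the daytime fast (0.551%), with 0 (41.6%), 0 (37%) and 1 (9.15%) at an unadjusted p under 0.05 and 0 (40.5%), 0 (11.2%) and 0 (0.888%) called by DESeq2. Nr4a1, which responds to beta-adrenergic signals in that tissue, measured 1.48, 81.8 and 5.95 at 0 h, 3.89, 38.9 and 34 at 2 h, 29, 10.6 and 13 at 8 h, 2.81, 103.7 and 61.6 at 12 h, 3.52, 116.7 and 159.1 at 18 h, and 55.8 and 24 at 22 h (CPM). Its values spread widely within every time, so that fed and late libraries overlap, with log2FC 0.84 ± 1.43 SE, adjusted p = 0.702. In perigonadal fat edgeR called 0 of 9 genes over the 6 times (against 0% of all genes tested), 0 in the late fast (0.00609%) and 0 in the daytime fast (0%), with 4 (10.3%), 4 (21.7%) and 3 (7.85%) at an unadjusted p under 0.05 and 2 (3.39%), 2 (3.52%) and 1 (0.0305%) called by DESeq2. Fos measured 209, 12.5 and 6.84 at 0 h, 10.8, 11.3 and 15.8 at 2 h, 10.4, 15.7 and 9.42 at 8 h, 4.18, 3.89 and 5.95 at 12 h, 6.91, 13.1 and 4.23 at 18 h, and 4.98, 3.99 and 6.64 at 22 h (CPM). The fed mouse 1, low in the brain, held 209 CPM where the other 17 libraries lay between 3.89 and 15.8 CPM. The same library was also the highest for Egr1 (149.9 CPM, the others at most 28.6), Fosb (36.7 CPM), Junb (35.6 CPM) and Ier2 (34.3 CPM). The 9 genes kept differed in it by a median of 1.19 on the log2 scale from the other mice, and all genes by 0.16. The late fast gave log2FC -3.35 ± 0.71 SE, adjusted p = 0.0763 for Fos and log2FC -1.96 ± 0.53 SE, adjusted p = 0.0963 for Egr1, which edgeR did not call. DESeq2 called them (Fos log2FC -3.35, adjusted p = 0.000666, Egr1 log2FC -1.96, adjusted p = 0.0144). Without the replicate 1 mice the Fos log2FC in edgeR was -0.44 (adjusted p = 0.672), and without mice 1 and 13, an alternative chosen after seeing the data, -0.43 (adjusted p = 0.622). This difference rests on the library of mouse 1. Egr2 in pgWAT held 108 CPM at 18 h replicate 3 and 46 CPM at 22 h replicate 2, against 0.403 to 6.88 CPM elsewhere. The same libraries held the highest sums of epididymis and testis markers (21813 CPM at 22 h replicate 2, 3914 CPM at 18 h replicate 3), with 2898 CPM at 2 h replicate 2, where Egr2 was 6.88 CPM, and 531 CPM at 22 h replicate 3, where it was 2.65 CPM. The other 14 libraries summed to at most 30.3 CPM. The part of these markers in the Egr2 values was not tested.

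In subcutaneous fat edgeR called 0 of 10 genes over the 6 times (against 0% of all genes tested), 0 in the late fast (0%) and 0 in the daytime fast (0%), with 2 (19.1%), 1 (5.19%) and 0 (2.7%) at an unadjusted p under 0.05 and 0 (12.3%), 0 (0.0179%) and 0 (0.0179%) called by DESeq2. Fos measured 51.7, 10.3 and 3.42 at 0 h, 3.68, 7.79 and 5.6 at 2 h, 6.11, 6.53 and 3.37 at 8 h, 4.43, 4.73 and 32.5 at 12 h, 5, 8.67 and 13.6 at 18 h, and 4.25 and 4.63 at 22 h (CPM). Mouse 1 was again the highest, at 51.7 CPM, and the next, 12 h replicate 3 at 32.5 CPM, was the library with cerebellar markers. Without replicate 3 mice Fos was called in the late fast (log2FC -2.91, adjusted p = 0.0385), as were 8.25% of all genes, and without replicate 1 mice its log2FC was 0.09 (adjusted p = 0.988). Egr3 measured 19.6, 24.3 and 54.4 at 0 h, 54.4, 51.2 and 54.3 at 2 h, 5.44, 46.4 and 22.7 at 8 h, 62.4, 52.8 and 8.65 at 12 h, 65.9, 34.2 and 15.2 at 18 h, and 64.8 and 14.9 at 22 h (CPM). The low libraries, 8 h replicate 1, 12 h replicate 3 and 22 h replicate 3 among them, come from different times, and fed and late libraries overlap (log2FC 0.18 ± 0.66 SE, adjusted p = 1). The 4 leukocyte markers, Ptprc the most abundant and 1 of them at 0 in 22 h replicate 3, summed to 582, 907 and 2247 at 0 h, 1924, 1623 and 1809.8 at 2 h, 148.1, 1074 and 545 at 8 h, 1972, 1983 and 277 at 12 h, 2425, 1478 and 682 at 18 h, and 1933 and 502 at 22 h (CPM). Over the 17 libraries Egr3 followed this sum, with r = 0.974 and rho = 0.949 with adjusted permutation p = 0.0001 and 0.000267 (n = 17), r = 0.941 without the 2 farthest libraries and 0.992 as deviations from time means. For Junb r = 0.851 and rho = 0.843 with adjusted permutation p = 0.000133 and 0.000267 (n = 17), for Egr2 r = 0.842 and rho = 0.875 with adjusted permutation p = 0.00025 and 0.000267 (n = 17), for Arc r = 0.746 and rho = 0.723 with adjusted permutation p = 0.00203 and 0.0056 (n = 17) and for Ier2 r = 0.625 and rho = 0.517 with adjusted permutation p = 0.0158 and 0.07 (n = 17). The relation of Fos to it missed the threshold, at r = -0.458 and rho = -0.453 with adjusted permutation p = 0.111 and 0.124 (n = 17). These are 6 of the same 20 relations computed after the values had been seen, and the part of leukocyte RNA in the levels was not tested.

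**Figure D4:**
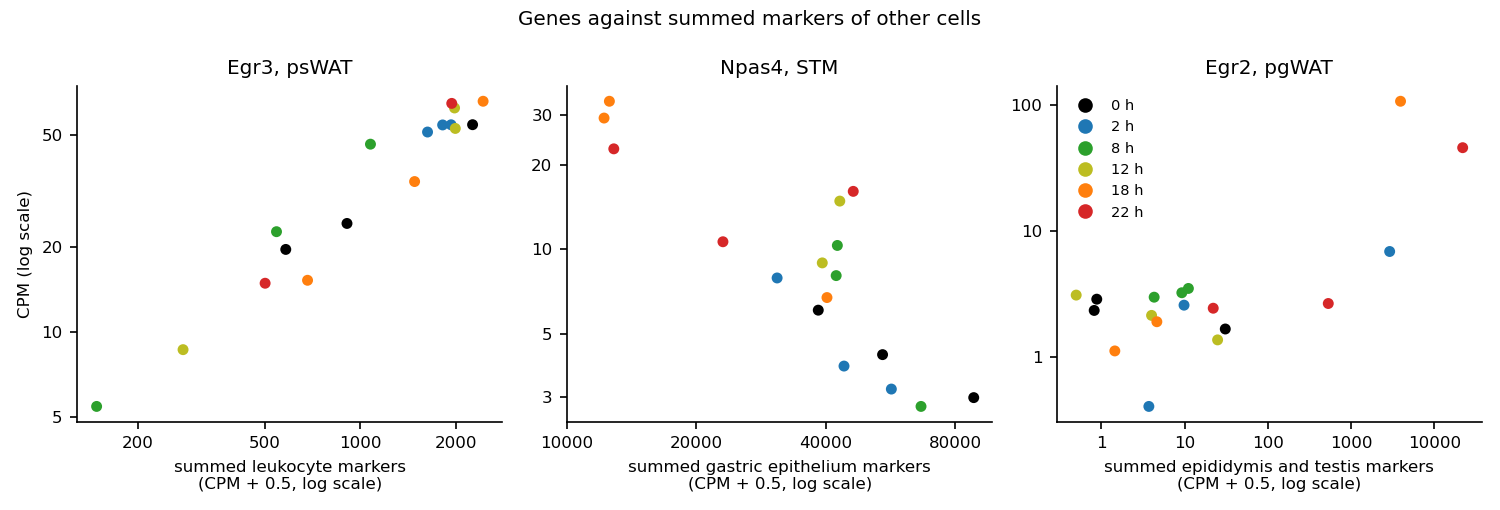
Gene level against the summed level of marker genes of another tissue, in CPM on log axes, each point 1 library coloured by hours of fasting: Egr3 against leukocyte markers in psWAT, Npas4 against gastric epithelium markers in STM, and Egr2 against epididymis and testis markers in pgWAT. The 2 pgWAT libraries with most Egr2 (108 and 46 CPM) have marker sums of 3914 and 21813 CPM.

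Other genes of the immediate early response were counted from fixed lists, over the kept genes of the 9 organs, and shares are of all tests of a kept gene in an organ. Over all genes 7.34% of such tests were called jointly and 2.56% in the late fast. The joint share was 15.4% in OB, 2.99% in CBL, 6.55% in STM, 16% in LIV and 29% in iBAT. In OB, STM and LIV all fed libraries carried another lane code than all late ones. In STM the tissue markers given above moved between the same libraries. The part of lane or of tissue make-up in the values of list genes was not tested. The genes named below that were called late in STM, LIV and iBAT were fitted again without each fed, 18 h or 22 h library in turn, an alternative chosen after seeing the data, which leaves the split by lane in place. Among other immediate early transcription factors (20 genes such as Jun, Atf3 and Klf4) 1 of 18 in OB, 1 of 18 in CBL, 2 of 18 in STM, 1 of 15 in LIV and 3 of 17 in iBAT were called jointly (5.19%), and 1 was higher and 6 lower in the late fast (4.55%). Per1, a clock gene, rose in STM (log2FC 1.56 ± 0.38 SE, adjusted p = 0.0155, called in 9 of 9 such fits), where Ier3 was higher by less than the threshold (log2FC 0.67 ± 0.20 SE, adjusted p = 0.0361). In iBAT Maff (log2FC -2.69 ± 0.47 SE, adjusted p = 0.0024, 4.75 to 32.1 CPM fed and 1.7 to 3.61 late) and Fosl2 (log2FC -1.72 ± 0.31 SE, adjusted p = 0.00268, 19.7 to 30.9 CPM fed and 2.22 to 16.9 late) fell, and were called in 8 of 8 and 8 of 8 fits without 1 library. Over those iBAT fits the log2FC of Maff ran from -3.09 to -1.51. Jun was called lower there (log2FC -1.12 ± 0.33 SE, adjusted p = 0.0275), but fed and late libraries overlap (16.9 to 47.3 CPM fed and 10.5 to 27.2 late) and 4 of 8 fits called it. The list's median late log2FC in iBAT was -0.29, where all genes had -0.07. In OB Jun, in CBL Bhlhe40 and in LIV Klf2 were called jointly (adjusted p = 0.0288, 0.0214 and 0.0455). Among feedback inhibitors and RNA decay factors (16 genes) 1 of 16 in OB, 1 of 15 in CBL, 2 of 16 in STM, 3 of 13 in LIV and 4 of 15 in iBAT were called jointly (8.03%), and 3 were higher and 2 lower late (3.65%). Rgs2, which damps G protein signals, was called higher in STM (log2FC 1.04 ± 0.26 SE, adjusted p = 0.0157, in 5 of 9 fits without 1 library), and Dusp6 (log2FC -1.07 ± 0.27 SE, adjusted p = 0.0136, 6 of 8) and Spry4 (log2FC -1.15 ± 0.31 SE, adjusted p = 0.0168, 6 of 8), which damp ERK signals, lower in iBAT. In LIV Nab1, a corepressor of Egr factors, passed jointly (adjusted p = 0.0116).

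Upstream kinases and promoter factors (18 genes) had 3 of 18 in OB, 1 of 18 in CBL, 1 of 18 in STM, 3 of 18 in LIV and 5 of 18 in iBAT called jointly (8.02%), 0 higher and 3 lower late (1.85%), all of the latter in iBAT. There Rps6ka3, a kinase of the ERK pathway (log2FC -1.17 ± 0.26 SE, adjusted p = 0.0079), and Mkl1, a partner of SRF (log2FC -1.20 ± 0.29 SE, adjusted p = 0.0103), were called lower. At 18 h their libraries overlapped the fed ones (56.6, 62.9 and 56.2 against 57.1, 55.7 and 73.4 CPM, and 6.73, 5.25 and 6.63 against 4.68, 10 and 7.52 CPM), and the 2 libraries at 22 h were low (10.1 and 20.3, and 1.58 and 2.26 CPM). Rps6ka3 was not called without 22 h replicate 2 (log2FC -0.994, adjusted p = 0.0383), nor Mkl1 without 0 h replicate 2 (log2FC -0.886, adjusted p = 0.0895). In LIV Crtc2, a coactivator of CREB, was higher by less than the threshold (log2FC 0.62 ± 0.12 SE, adjusted p = 0.00231), and in STM Map2k1 was lower (log2FC -0.74 ± 0.14 SE, adjusted p = 0.00541). Neuronal late response and effector genes (12 genes) had 4 of 12 in OB, 2 of 11 in CBL, 3 of 12 in STM, 2 of 7 in LIV and 2 of 5 in iBAT called jointly (14.9%), 3 higher and 2 lower late (5.75%). Gadd45g, a stress response gene, rose in STM (log2FC 1.60 ± 0.24 SE, adjusted p = 0.00232, in 9 of 9 fits without 1 library), was called higher in LIV (log2FC 2.81 ± 0.74 SE, adjusted p = 0.0316, in 4 of 9), and in OB it was higher by less than the threshold (log2FC 0.58 ± 0.11 SE, adjusted p = 0.0141). In each of these organs fed and late libraries differed in lane code, as stated above. Homer1 passed jointly in OB (adjusted p = 0.00883) and CBL (adjusted p = 0.0239), as did Pcsk1 in OB (adjusted p = 0.00529) and Nrn1 in CBL (adjusted p = 0.0158). Matrix and secreted genes (4 genes) had 1 of 4 in OB and 1 of 4 in LIV called jointly (5.71%), 1 higher and 0 lower late (2.86%). Those called jointly were Ctgf in OB (adjusted p = 0.0251) and Cyr61 in LIV (adjusted p = 0.0463). Glucocorticoid response genes (5 genes) had 2 of 5 in OB, 1 of 5 in CBL, 4 of 5 in STM, 1 of 5 in LIV and 3 of 5 in iBAT called jointly (24.4%), 4 higher and 0 lower late (8.89%). Pdk4 rose in STM (log2FC 1.90 ± 0.33 SE, adjusted p = 0.00442, in 9 of 9 fits without 1 library). Zbtb16 was called higher there (log2FC 1.92 ± 0.52 SE, adjusted p = 0.0246, in 6 of 9), and Fkbp5 (log2FC 1.47 ± 0.47 SE, adjusted p = 0.0387, in 1 of 8) and Tsc22d3 (log2FC 1.02 ± 0.33 SE, adjusted p = 0.0395, in 2 of 8) in iBAT. Fkbp5 in OB passed jointly (adjusted p = 0.00161) and was higher late by less than the threshold (log2FC 0.48 ± 0.09 SE, adjusted p = 0.0141). Fed OB libraries all carried lane code 3 and late ones lane code 4, and the part of lane in these OB values was not tested. The list's median late log2FC was 0.43 in OB, 0.50 in BRN, 0.80 in CBL, 0.53 in BST, 0.89 in STM, 0.19 in LIV, 0.53 in iBAT, -0.04 in pgWAT and 0.53 in psWAT, over the genes of it kept in each organ.

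The table of RefSeq promoters used here (build GRCm38.p6) held 6 of the 10 genes (Fos, Fosb, Junb, Egr2, Npas4 and Nr4a1), and not Egr1, Egr3, Arc and Ier2. Some of the genes varied with Fos in some organs, and whether their promoters have a part in that was not tested. The 250 bases upstream of each start were searched on both strands. The motifs were TGACG, the core of the cAMP response element, its full palindrome TGACGTCA, which contains TGACG, the CArG box, to which SRF binds, and CCAAT. Matches to TGACG numbered 2 in Fos, 1 in Fosb, 1 in Junb, 2 in Npas4, 4 in Nr4a1 and at most 2 in any of the 5 promoters of Egr2. Over all 32851 mouse promoters of that length 17.8% held TGACG, 1.55% TGACGTCA, 1.47% a CArG box and 33.8% CCAAT. TGACGTCA was in none of the 6, a CArG box in Egr2, and CCAAT in Junb and Egr2. A match is a description, and its absence says only that these letters are not in this window. Fos and Nr4a1 passed together in all 4 brain regions with every retained library, but in OB and BST not without mice 1 and 13. Junb changed in the liver. Shown are the windows of these genes, 5′ to 3′ with TGACG or its complement CGTCA in capitals: Fos at chr12:85473640-85473889 on the plus strand, Junb at chr8:84978749-84978998 on the minus strand and Nr4a1 at chr15:101266596-101266845 on the plus strand. None of these windows overlaps an annotated exon of another gene, and that of Nr4a1 lies within the span of its own longer gene model (chr15:101254269-101274795).
Fos: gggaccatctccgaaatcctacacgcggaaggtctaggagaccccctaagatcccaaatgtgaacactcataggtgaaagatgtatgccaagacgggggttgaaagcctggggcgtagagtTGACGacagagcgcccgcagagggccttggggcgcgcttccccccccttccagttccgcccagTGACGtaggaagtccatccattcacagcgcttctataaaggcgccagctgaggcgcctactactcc
Junb: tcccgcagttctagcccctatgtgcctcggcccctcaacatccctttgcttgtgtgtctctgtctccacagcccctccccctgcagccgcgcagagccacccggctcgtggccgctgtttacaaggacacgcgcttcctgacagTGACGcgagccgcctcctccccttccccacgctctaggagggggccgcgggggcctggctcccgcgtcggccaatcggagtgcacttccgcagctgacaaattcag
Nr4a1: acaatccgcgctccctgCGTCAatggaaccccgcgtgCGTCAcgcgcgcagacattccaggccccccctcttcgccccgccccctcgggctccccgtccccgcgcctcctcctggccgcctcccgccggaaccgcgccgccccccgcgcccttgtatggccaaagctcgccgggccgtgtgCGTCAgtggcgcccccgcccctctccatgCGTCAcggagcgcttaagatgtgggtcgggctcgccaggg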

How the data were processed

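mRNA of 9 organs of 18 mice was sequenced with a stranded kit. The authors aligned reads with TopHat2 2.1.1, counted them per gene with HTSeq 0.9.1 and deposited each value as a count, without normalization or filter. From these counts CPM and fits were computed per organ with edgeR 4.0.16 (TMM, robust quasi-likelihood), with p adjusted by Benjamini-Hochberg over the genes of the organ, in R 4.3.3. DESeq2 1.42.0 was the alternative tool. Permutation tests (100000 permutations, fixed seed) and figures used Python 3.11.15, scipy 1.17.1, pandas 2.3.3 and matplotlib 3.10.9. Correlations used log2(CPM + 0.5). Gene coordinates and exon lengths are those of Gencode for GRCm38.

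The 5 libraries named above were left out, and put back as an alternative. Other alternatives were DESeq2, RLE normalization, no filter on low counts, a term for replicate number, a term for lane or library number series, other pseudocounts and leaving out replicates, single libraries (STM, LIV) or libraries standing apart. Leaving out mice 1 and 13 (in the fits and in the spread between mice), leaving out single libraries for list genes (STM, LIV, iBAT), correlations within lanes and those with marker sums were chosen after seeing the data. Whether equal replicate numbers at different times share a source was checked: within organs the mean correlation of libraries with the same number, as deviations from time means, lay between -0.0696 and 0.157. The joint and late fits of the liver were tested on simulated data, and those of the other organs were not.

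The 10 genes and the lists were chosen with earlier results of these data known. All 10 genes are named, and of each list and organ up to 3 genes called jointly with the smallest adjusted p, from which examples are given. The genes most like Fos are the 3 with the highest r per organ.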

Additional observations from a re-analysis of the deposited data

Results flagged for a closer look

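In the 5 libraries left out of the comparisons, 9 of the 50 values of the 10 genes lay above the highest fed library of the organ. No share of all genes above that mark is given, and some values pass the highest of 3 fed libraries without any change. The count is therefore not read as an excess. The 9 values are listed because these libraries were not used. In STM at 12 h replicate 3 they were Npas4 at 20.5 CPM (highest fed 6.08), Nr4a1 at 23.3 CPM (highest fed 17.4) and Ier2 at 66.9 CPM (highest fed 57.8). In iBAT at 22 h replicate 1 they were Fosb at 2.59 CPM from 7 counts (highest fed 2.44), Junb at 25.9 CPM (highest fed 5.94) and Ier2 at 51.5 CPM (highest fed 21.5). In psWAT at 22 h replicate 2 they were Junb at 64.5 CPM (highest fed 60.2), Npas4 at 3.74 CPM from 11 counts (highest fed 3.42) and Ier2 at 113.09 CPM (highest fed 59.1). Of the 50 values 22 were 0 counts. These libraries held the fewest counts of their organ (4590060 in STM, 2700482 in iBAT and 2944552 in psWAT).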

How the results depend on the processing

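Of 508 recomputed values 388 were counts, 304 of them 0. Of the counts 350 stayed within 1.5 times and 38 moved further. Of the 120 other values 93 held their direction and side of the threshold, 27 lost the threshold and 0 reversed. The cause was not tested. In the joint test DESeq2 called 2 genes in STM (17.2% of all genes) and 2 in pgWAT (3.39%). Without a filter on low counts 10 were called in OB (14.2% of all genes), 2 in BRN (7%), 2 in CBL (8.09%), 1 in BST (2.45%), 1 in STM (5.59%) and 3 in LIV (15.8%). The term for replicate number called 1 in STM (4.41%), and putting back the libraries left out gave 1 in iBAT (30.7%). Leaving out replicates in turn, or single libraries in STM and LIV, gave 0 to 2 in OB, 0 to 1 in STM and 0 to 2 in LIV. The share of all genes for the OB calls is given above, as is the liver fit that called 0 genes of any kind. Other shares are not given, so these counts are not set against all genes. The BRN call came without replicate 3, which leaves 1 library at 18 h, and is not counted. In the late fast DESeq2 called 2 in pgWAT (3.52%), and no filter gave 1 in STM (3.996%) and 1 in LIV (Egr1, 1.6%). Lane in the fit gave 0 in STM, leaving out mice 1 and 13 (chosen after seeing the data) 0 in STM, and no fold threshold 1 in LIV. For lane, these mice and the fold threshold no share of all genes is given, so those counts are not set against all genes. Leaving out replicates or libraries gave 0 to 3 in STM, also without a share of all genes. In BRN and psWAT calls came only without replicate 3. That fit leaves 1 library at 18 h in BRN and 1 at 22 h in psWAT, so its calls are not counted here. In the daytime fast DESeq2 called 1 in pgWAT (0.0305%).

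Correlations between organs with an adjusted permutation p under 0.05 went from 13 to 1 as deviations from time means. Without the 2 farthest mice none of the 13 passed, and 1 other did (Npas4 between OB and STM, r = -0.786, adjusted permutation p = 0.0468). Those with Fos within an organ went from 23 to 12 and to 13.

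With 3 mice per time, small changes of genes near the floor of 3 counts (at most 0.462 CPM in CBL, 0.429 in BST and 0.431 in LIV), such as Egr2 in CBL and BST and Fosb, Egr2, Egr3, Arc and Npas4 in LIV, were not detectable at this depth.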
